A study of Mus musculus with 6 samples.

Results

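The genes described here encode integrins, laminins and nidogens, the cell surface receptors and the matrix proteins that join cells to a basement membrane. They were chosen by name: a probe belonged to the set if its RefSeq accession mapped to an integrin alpha or beta chain gene with a numbered symbol, to Itgav, to a laminin alpha, beta or gamma chain gene, or to Nid1 or Nid2. Of 33 such symbols, 32 had at least 1 probe on the array and Itga10 had none matched. The 32 genes were read by 42 probes, out of 37153 genes and unnamed features and 55658 probes in all. The rule uses no expression value.

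Total RNA of 6 mouse cell cultures was hybridised to 1-colour Agilent arrays, with 2 arrays for each of 3 groups, to place muscle-derived stem cells (MDSC) beside a pluripotent line by gene expression. The WT MDSC came from hindlimb muscle of 5-week-old wild-type male mice and the Mstn-null MDSC from males of the same age labelled null for Mstn, which encodes myostatin, a secreted inhibitor of muscle growth; the allele is not given in the sources used here. MDSC were the last fraction to attach in a serial preplating on matrigel, were used untreated at passage 1, and came from 2 isolations per genotype. The third group, W4 ESC, is 1 established mouse embryonic stem cell line, untreated, at passages 12 and 15. Feeder cells are described in 2 ways: the sample labels name the colonies feeder free, and the protocol has them grown over embryonic fibroblasts that a brief plating on gelatin then removed. Matrigel is itself an extract of basement membrane rich in laminin and nidogen, so cell type and culture surface cannot be told apart in any comparison with ESC.

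Laminins are secreted trimers of an alpha, a beta and a gamma chain that polymerise into the first sheet of a basement membrane. Nidogens bridge that sheet to the collagen IV network. Integrins are pairs of an alpha and a beta chain that span the plasma membrane and bind laminin, collagen, fibronectin or cell surface ligands outside the cell while coupling to actin inside; in skeletal muscle, the laminin chain of Lama2 and the integrin chain of Itga7 are central to the attachment of the fibre to its sheath.

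Depth was similar between arrays: of the 59305 spots that were not controls, 53.3% to 64.6% had a signal called well above background by the scanner software, and 0 were saturated. Values below are log2 signals relative to the 75th percentile of the array, given per array. Levels of single genes are not compared with each other, because probes differ in brightness. The summed signals of marker lists are linear and weigh bright probes most, so they serve only to set arrays side by side. The number of arrays limits the precision. The WT arrays were alone on 1 slide and the Mstn-null and ESC arrays shared the other, so slide and genotype cannot be told apart. In these cultures fewer cells of a type and less RNA per cell cannot be told apart either. Of 10 pluripotency markers, 9 were lower in MDSC and 1 higher; Pou5f1 was well above background on the ESC arrays only, whereas the Nanog probe was well above background on all 6 and 1.48-fold higher in MDSC (limma adjusted p = 0.0185). Of 11 tested myogenic markers, 6 were higher in MDSC, 0 lower and 5 did not pass; the myogenic factors Myod1 and Myog were well above background on the 4 MDSC arrays and on neither ESC array. The satellite cell gene Pax7 was well above background on 1 of 4 MDSC arrays and on 1 ESC array, and the myogenic gene Myf5 on no array. The Mstn probe was well above background on the Mstn-null arrays only (log2 -3.06 and -2.47, against -4.90 and -6.71 on the WT arrays). The allele is unknown here and the position of this probe relative to it is too, so its signal does not check the genotype labels.

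In MDSC, the 4 arrays of both genotypes together, 5 of 11 tested laminin chains were higher than in ESC: Lama2, Lama4, Lamb1, Lamb2 and Lamc3. Nid1 and 9 of 17 tested integrin chains were higher as well, while 2 integrin chains were lower and 6 did not pass. The 9, and the 15 of 30 genes counted below, include Itgb6. It was well above background on the WT arrays only and was tested only through them. The laminin alpha chains of the early embryo and of epithelia (Lama1, Lama5) and the integrin chains Itga6 and Itgb4, which pair as a laminin receptor, were the genes that were lower. Of the 32 genes, 30 were tested, and 27 were well above background on all 6 arrays; Itga2 and Itgb8 were too dim to test. With limma, 15 of 30 were higher in MDSC, against 28.3% of the 25057 genes and features tested, 4 were lower, against 31.4%, and 11 did not pass an adjusted p of 0.05. The share called in either direction, 63.3%, was near the 59.6% of all genes. The median log2 difference of the 30 was 1.00, beside -0.03 for all genes tested. The arrays of both sides did not overlap for 21 of the 30 genes and for 69.1% of all genes.

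**Figure D1:**
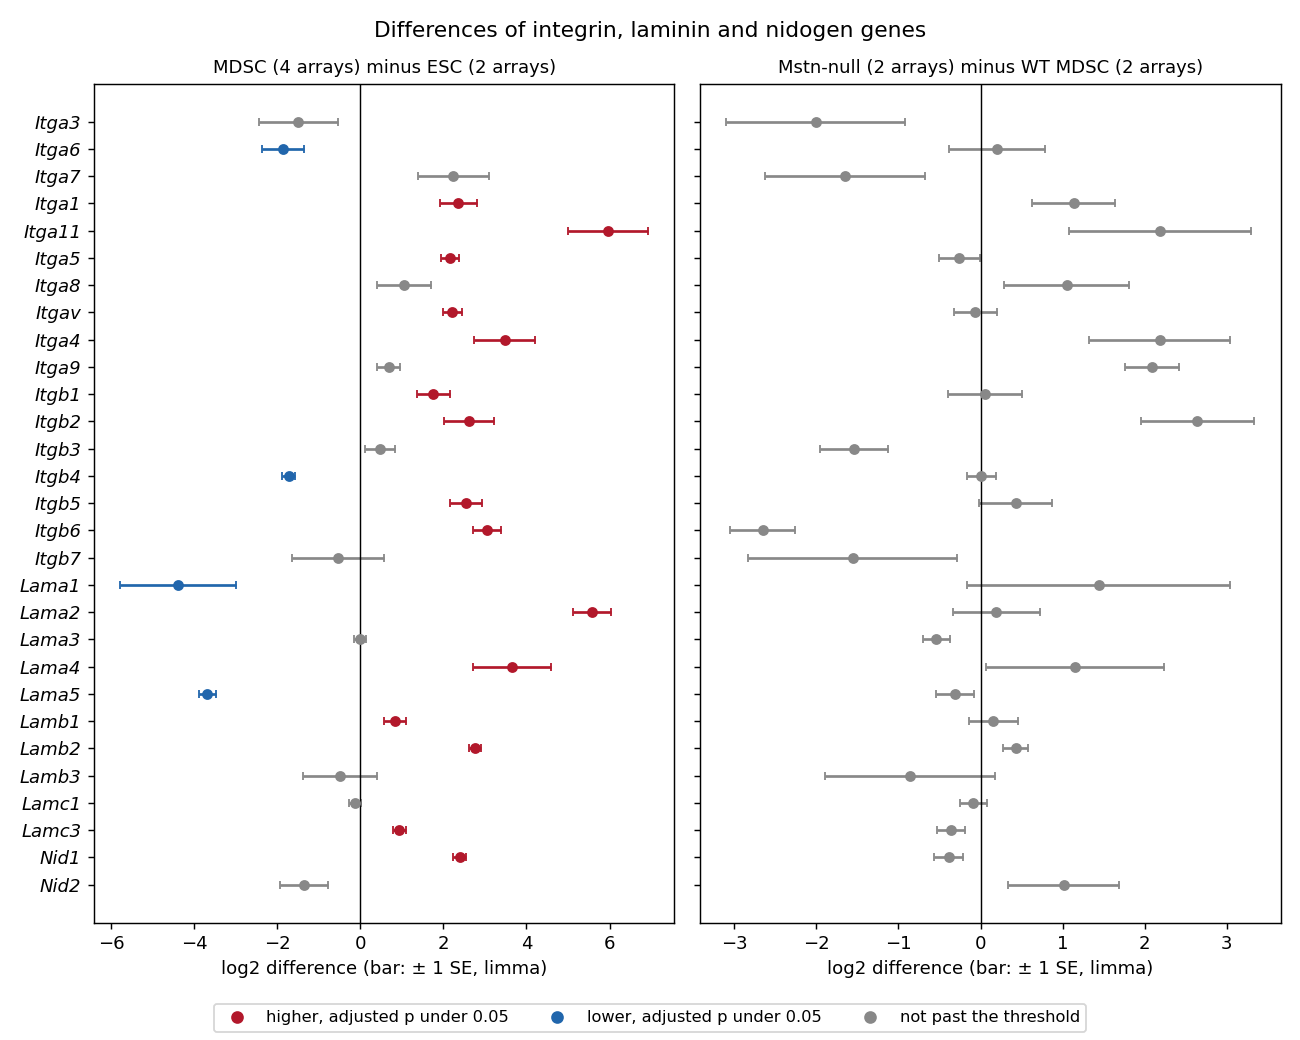
Log2 difference with 1 SE (limma) of the tested genes named here, MDSC minus ESC on the left and Mstn-null minus WT MDSC on the right; red is higher and blue lower at an adjusted p under 0.05, and grey did not pass. On the left 15 points are red and 4 blue, from Itga11 at 5.96 to Lama1 at -4.39; on the right none passed.

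Promoter activity was not measured, and the sequences are given as context. RefSeq promoter windows of 250 bases before the annotated start (GRCm38.p6) were matched for 20 of the 32 genes, with 23 windows. Those of 3 genes are shown because their genes differed between MDSC and ESC under all settings tried: Lama2 and Nid1, higher in MDSC, and Lama5, lower. The windows are chr10:27616943-27617192 on the minus strand for Lama2, chr2:180225860-180226109 on the minus strand for Lama5 and chr13:13437352-13437601 on the plus strand for Nid1, each written 5′ to 3′ along its gene. Capitals mark matches on either strand to 5 short motifs. The GC box was searched as GGGCGG. For the CCAAT box the letters were those of its name. The TATA box was searched as TATAAA. For the site of AP-1, a factor of growth signals, the letters were TGANTCA. The core bound by TEAD factors, partners of YAP, was searched as GGAATG.
Lama2: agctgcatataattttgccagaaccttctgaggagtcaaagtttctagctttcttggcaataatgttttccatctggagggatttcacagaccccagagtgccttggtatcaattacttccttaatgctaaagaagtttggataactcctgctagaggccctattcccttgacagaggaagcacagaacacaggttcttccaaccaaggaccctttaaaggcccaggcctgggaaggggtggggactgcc
Lama5: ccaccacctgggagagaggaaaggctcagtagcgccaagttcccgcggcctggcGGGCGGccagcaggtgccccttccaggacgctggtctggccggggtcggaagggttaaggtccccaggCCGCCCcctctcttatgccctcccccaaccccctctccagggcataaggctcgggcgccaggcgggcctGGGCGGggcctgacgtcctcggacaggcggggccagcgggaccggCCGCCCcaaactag
Nid1: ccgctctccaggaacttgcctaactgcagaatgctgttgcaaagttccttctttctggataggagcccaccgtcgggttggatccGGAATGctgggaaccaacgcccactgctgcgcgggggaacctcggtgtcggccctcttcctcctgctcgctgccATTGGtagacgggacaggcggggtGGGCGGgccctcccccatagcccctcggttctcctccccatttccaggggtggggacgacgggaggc

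The Lama2 window held 0 CpG dinucleotides and none of the motifs, the Lama5 window 19 CpG and 4 GC boxes, and the Nid1 window 16 CpG with 1 GC box, 1 CCAAT box and 1 TEAD core. Across the 23 windows of the set the median was 11 CpG, beside 6 over all 32851 windows in the table. A GC box was present in 9 of 23 windows (32.7% of all windows), a CCAAT box in 4 of 23 (33.8%) and a TEAD core in 3 of 23 (12.6%). No window of the set held the TATA box (12.4% of all) or the AP-1 site (6.75%). A GC box lay in 6 of 13 windows of genes that were higher in MDSC, in the 1 window of a gene that was lower and in 2 of 7 windows of genes that did not pass. These are matches of letters, with the motifs free to overlap one another, and carry no evidence of binding.

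Among the 3 integrin alpha chains grouped here as laminin receptors (Itga3, Itga6 and Itga7), 1 was lower in MDSC and the others did not pass. Itga6, the laminin receptor chain of epithelia and of many stem cells, read 2.50 and 3.88 on the WT arrays, 2.83 and 3.93 on the Mstn-null arrays and 4.97 and 5.34 on the ESC arrays. Every MDSC array was below both ESC arrays, and Itga6 was 3.65-fold lower in MDSC (log2 difference -1.87, SE 0.51, limma adjusted p = 0.0278). The call was lost without Mstn-null replicate 1 (limma adjusted p = 0.0590), ESC replicate 1 (0.0886) or ESC replicate 2 (0.138).

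Itga7, the main laminin receptor chain of muscle cells, read 4.27 and 1.48 in WT, 0.95 and 1.50 in Mstn-null and -0.76 and 0.37 in ESC. All MDSC arrays were above the ESC arrays, but WT replicate 1 stood far above the others, and the difference of 2.24 (SE 0.85) did not pass (limma adjusted p = 0.0707). It passed without that array (1.55, limma adjusted p = 0.0483) and without WT replicate 2 (2.94, limma adjusted p = 0.00922). The summed linear signal of 13 myogenic markers was also highest on WT replicate 1, at 236, with 34.1 on the other WT array, 41.4 and 45.6 on the Mstn-null arrays and 8.42 and 15.5 on the ESC arrays; 8 to 12 of the 13 were well above background on an array, and its part in the Itga7 signal was not tested.

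Itga3, another laminin receptor chain, overlapped between the groups: WT -0.90 and 1.90, Mstn-null -0.73 and -2.28, ESC 0.40 and 1.59. Its difference was -1.49 (SE 0.94, limma adjusted p = 0.222), with a 95% interval of -3.91 to 0.93. Within the slide that held Mstn-null and ESC arrays it was -2.50 and passed (limma adjusted p = 0.0449).

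Both tested chains that bind collagen were higher in MDSC, Itga1 with 1 of its 2 probes. Itga11, a receptor chain for fibrillar collagen made by mesenchymal cells, read 4.99 and 1.60 in WT, 5.33 and 5.62 in Mstn-null and -1.94 and -1.22 in ESC. The groups were far apart, and Itga11 was 62.4-fold higher in MDSC (log2 difference 5.96, SE 0.96, limma adjusted p = 0.00544), although WT replicate 2 lay well below the other MDSC arrays. Itga1, a receptor chain for collagen IV and other collagens, read -0.83 and -2.20 in WT, -0.15 and -0.61 in Mstn-null and -3.03 and -3.58 in ESC. No MDSC array reached down to the ESC arrays, and the gene was 5.13-fold higher in MDSC (log2 difference 2.36, SE 0.44, limma adjusted p = 0.00871). This call was lost without ESC replicate 2 (limma adjusted p = 0.0608) and with the mean over both probes (1.17, limma adjusted p = 0.0594). Itga2, the collagen receptor chain of platelets and epithelia, was well above background on 3 of 6 arrays, 1 of each group, and was not tested; its 6 values ran from -5.53 to -3.59.

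The fibroblast markers moved with the collagen receptor chains. Of 12 such markers, 10 were higher in MDSC and 2 did not pass, and their summed signal was 2053 and 1134 on the WT arrays, 1881 and 2399 on the Mstn-null arrays and 176 and 103 on the ESC arrays. The sums hide a gap between the ESC arrays. Their mean log2 level was 2.34 on replicate 1 and -0.02 on replicate 2, with 12 and 10 markers well above background. WT replicate 2, the lowest MDSC array for Itga11, was also the lowest MDSC array for this sum, and all 12 markers were well above background on it. The part of fibroblast content in the integrin and laminin differences was not tested.

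Of the 3 tested chains that recognise the RGD sequence of matrix proteins, 2 were higher in MDSC and 1 did not pass. Itga5, the alpha chain of the main fibronectin receptor, read 2.62 and 2.61 in WT, 2.32 and 2.40 in Mstn-null and 0.01 and 0.66 in ESC. Itgav, the alpha chain shared by vitronectin receptors that also activate latent TGF-beta, read 1.84 and 1.96, 1.73 and 1.93, and -0.67 and -0.03 in the same order. The MDSC arrays stood together above the ESC arrays for each gene. Itga5 was 4.45-fold higher (log2 difference 2.15, SE 0.22, limma adjusted p = 0.00148) and Itgav 4.64-fold higher (2.21, SE 0.23, limma adjusted p = 0.00150). Itga8, a chain of smooth muscle and kidney mesenchyme that binds nephronectin, was spread in MDSC (WT 0.00 and -2.24, Mstn-null -0.45 and 0.31, ESC -1.63 and -1.66). Its difference of 1.05 (SE 0.66) did not pass (limma adjusted p = 0.221), and did without WT replicate 2 (1.61, limma adjusted p = 0.0147) and within the slide of the Mstn-null and ESC arrays (1.57, limma adjusted p = 0.0182).

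The related chains Itga4 and Itga9 bind VCAM1 and other ligands on cells and in matrix; Itga4 is the chain of leukocyte homing. Itga4 read -1.70 and -3.52 in WT, -1.21 and 0.35 in Mstn-null and -5.59 and -4.40 in ESC, where the first ESC array was not well above background. It was 11.1-fold higher in MDSC (log2 difference 3.47, SE 0.74, limma adjusted p = 0.0131), and not past the threshold without ESC replicate 1 (limma adjusted p = 0.0810). Itga9 read -0.34 and -1.00 in WT, 1.74 and 1.10 in Mstn-null and -0.37 and -0.25 in ESC. The WT arrays lay beside or below the ESC arrays and the Mstn-null arrays above both, so the difference of the MDSC mean from ESC, 0.68 (SE 0.28), did not pass (limma adjusted p = 0.0906). Within the slide of the Mstn-null and ESC arrays it was 1.73 and passed (limma adjusted p = 0.0111), and the MDSC difference of 0.68 passed with the isolation number as a block (limma adjusted p = 0.0371).

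**Figure D2:**
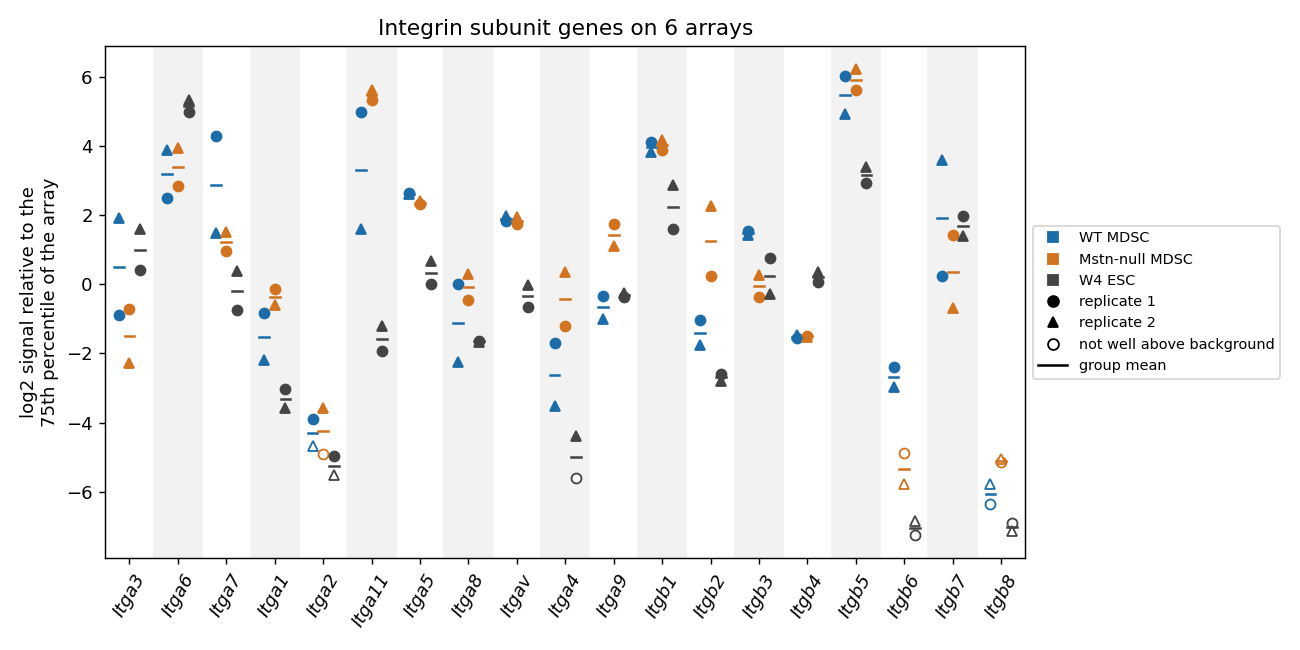
Log2 signal relative to the array's 75th percentile of the 19 integrin chain genes on 6 arrays; blue is WT MDSC, orange Mstn-null MDSC and dark grey W4 ESC, circles and triangles are replicates 1 and 2, open symbols were not well above background, and bars are group means. Itga11 shows the widest distance between MDSC (1.60 to 5.62) and ESC (-1.94 and -1.22), and Itgb6 was well above background in WT only.

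Of 7 integrin beta chains tested, 4 were higher in MDSC, 1 was lower and 2 did not pass. The 4 include Itgb6, which was tested only through the WT arrays. Itgb1, the partner of most laminin and collagen receptor alpha chains, read 4.11 and 3.82 in WT, 3.87 and 4.16 in Mstn-null and 1.59 and 2.87 in ESC. The 4 MDSC arrays were close together and above both ESC arrays, a 3.38-fold difference (log2 1.76, SE 0.39, limma adjusted p = 0.0147). Itgb5, a partner of Itgav in vitronectin binding, read 6.03 and 4.93, 5.61 and 6.21, and 2.93 and 3.38, and was 5.83-fold higher in MDSC (log2 2.54, SE 0.39, limma adjusted p = 0.00453). Itgb4, the hemidesmosome chain that pairs with Itga6, read -1.57 and -1.47 in WT, -1.49 and -1.52 in Mstn-null and 0.07 and 0.35 in ESC. Its MDSC values were nearly the same on 4 arrays, 3.31-fold below ESC (log2 -1.72, SE 0.15, limma adjusted p = 0.00103).

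Itgb6, the epithelial partner of Itgav that activates latent TGF-beta, was well above background on the WT arrays only. It read -2.38 and -2.97 there, -4.88 and -5.78 in Mstn-null and -7.25 and -6.85 in ESC. Against the lowest signals that count as above background, it was at least 5.32-fold higher in WT MDSC than in ESC (limma adjusted p = 0.00153). Itgb6 was tested only because the WT arrays passed the filter. Over all 4 MDSC arrays it was called higher too (limma adjusted p = 0.00189), but that mean includes the Mstn-null arrays, which were below background. No fold is given for that comparison or for Mstn-null against ESC, where both sides were below background.

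Itgb2, the beta chain of leukocyte integrins, read -1.05 and -1.75 in WT, 0.24 and 2.25 in Mstn-null and -2.60 and -2.79 in ESC. All MDSC arrays were above ESC, by 6.13-fold on average (log2 2.62, SE 0.60, limma adjusted p = 0.0161), and the Mstn-null arrays were above the WT arrays. The call was lost without ESC replicate 1 (limma adjusted p = 0.0718) or 2 (0.0884). The summed signal of 16 leukocyte and macrophage markers followed the same order, at 27.0 and 15.2 in WT, 80.5 and 304 in Mstn-null and 7.92 and 9.23 in ESC, with 13 to 15 of the 16 well above background on an MDSC array and 11 or 12 on an ESC array. Of 15 tested markers of this list, 9 were higher in MDSC than in ESC, 0 lower and 6 did not pass. For WT MDSC against ESC, 6 were higher, 0 lower and 9 did not pass. Ptprc, the pan-leukocyte surface phosphatase, passed the background test on each of the 4 MDSC arrays and on neither ESC array. Other markers of the list differed from this: Cd3e, Laptm5 and Coro1a were well above background on all 6 arrays. Their WT arrays lay below both ESC arrays, with Laptm5 at -1.40 and -3.10 in WT and 0.18 and 0.07 in ESC. The part of leukocytes in the Itgb2 and Itga4 signals was not tested.

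Itgb3, the partner of Itgav in vitronectin binding, did not pass in MDSC versus ESC. It read 1.54 and 1.42 in WT, -0.39 and 0.26 in Mstn-null and 0.76 and -0.27 in ESC, so WT stood above the overlapping Mstn-null and ESC arrays (log2 difference of MDSC from ESC 0.47, SE 0.36, 95% interval -0.45 to 1.39, limma adjusted p = 0.303). The difference turned to -0.30 within the slide of the Mstn-null and ESC arrays. Itgb7, the partner of Itga4 on gut-homing leukocytes, was scattered within each MDSC genotype (WT 0.24 and 3.59, Mstn-null 1.41 and -0.70, ESC 1.96 and 1.38) and did not pass (-0.54, SE 1.10, limma adjusted p = 0.693); without WT replicate 1 it was 0.30. Itgb8 was well above background on no array.

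Laminin alpha chains divided between the cell types: 2 were higher in MDSC, 2 lower and 1 did not pass. Lama2, the alpha chain of the laminin of muscle and peripheral nerve, read 2.60 and 1.14 in WT, 1.72 and 2.41 in Mstn-null and -3.69 and -3.53 in ESC. Its lowest MDSC array was far above both ESC arrays, and it was 47.7-fold higher in MDSC (log2 5.58, SE 0.46, limma adjusted p = 0.000891). Lama4, the alpha chain of vessel and mesenchymal laminin, read 2.74 and 0.81, 3.01 and 2.84, and 0.09 and -2.69. It was 12.6-fold higher in MDSC (log2 3.65, SE 0.93, limma adjusted p = 0.0230), with wide gaps between the WT arrays and between the ESC arrays. The Lama4 call was lost without WT replicate 1 (limma adjusted p = 0.0519), Mstn-null replicate 1 (0.0575), Mstn-null replicate 2 (0.0559) or ESC replicate 2 (0.0919), the last with a difference of 2.26.

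Lama5, the alpha chain of the laminin of epithelia and of the inner cell mass, read 0.98 and 0.67 in WT, 0.57 and 0.48 in Mstn-null and 4.59 and 4.13 in ESC. The MDSC arrays lay within a narrow band far below ESC, a 12.8-fold difference (log2 -3.68, SE 0.20, limma adjusted p = 0.000349). Lama1, the alpha chain of the earliest embryonic laminin, read 0.89 and -4.13 in WT, -0.47 and 0.10 in Mstn-null and 3.34 and 3.64 in ESC. Every MDSC array was below ESC, 21.0-fold on average (log2 -4.39, SE 1.39, limma adjusted p = 0.0434), but the WT arrays differed by 5.02 on the log2 scale. The call did not hold without Mstn-null replicate 1 (limma adjusted p = 0.0967) or 2 (0.0854) or without ESC replicate 1 (0.144) or 2 (0.169), nor with no filter on dim probes (0.0602).

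Epithelial markers moved with Itga6, Itgb4, Lama1 and Lama5: 7 of 9 were lower in MDSC, 0 higher and 2 did not pass, with a median log2 difference of -8.90. Other tested chains described here as epithelial or epidermal did not. Itgb6 was called higher in MDSC, tested only through the WT arrays, and Lamb3 and the brighter Lama3 probe did not pass. The pluripotency markers moved the same way as the epithelial markers, with a median of -10.1 and a summed signal of 2.56 to 2.96 on the MDSC arrays and 806 and 894 on the ESC arrays. Epcam, an epithelial adhesion gene also made by embryonic stem cells, was well above background on the ESC arrays only. The part of either list in the laminin and integrin differences was not tested. Lama3, the alpha chain of epidermal laminin, did not pass with its brightest probe (WT -1.00 and -0.98, Mstn-null -1.49 and -1.58, ESC -1.38 and -1.14; difference -0.0038, 95% interval -0.38 to 0.37, limma adjusted p = 0.983), but its other probe differed, as described with the probes below.

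**Figure D3:**
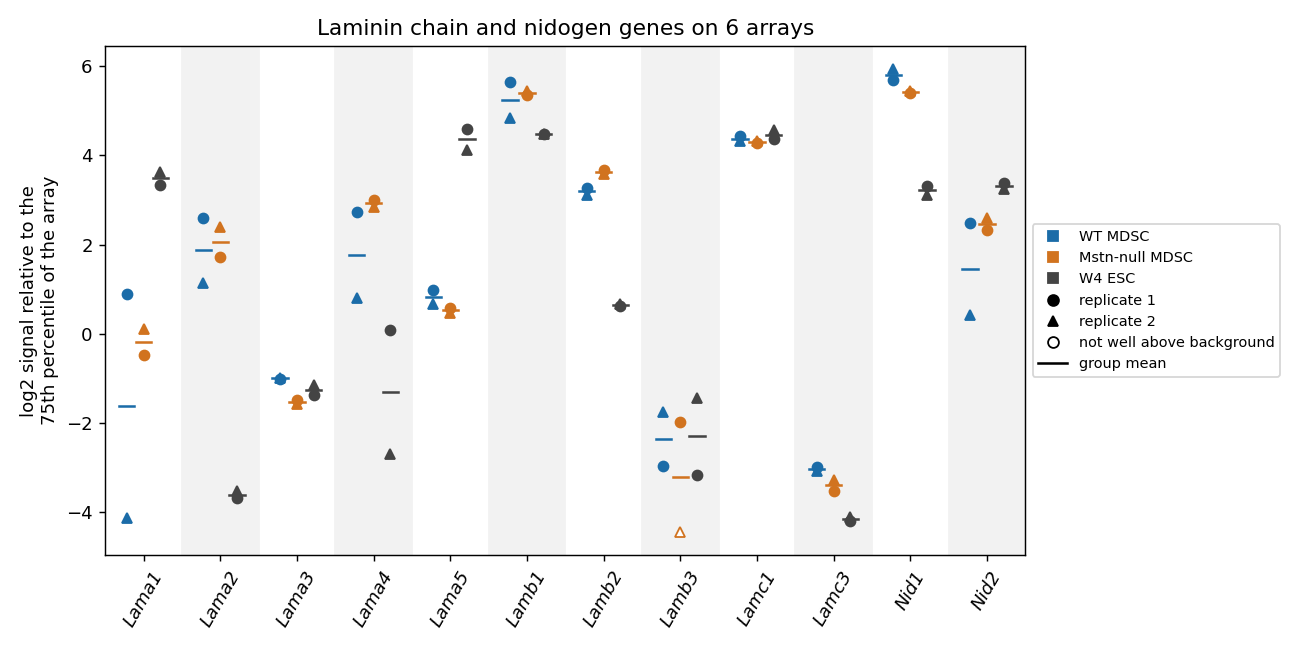
Log2 signal relative to the array's 75th percentile of laminin chain and nidogen genes on 6 arrays; blue is WT MDSC, orange Mstn-null MDSC and dark grey W4 ESC, circles and triangles are replicates 1 and 2, open symbols were not well above background, and bars are group means. Lama2 and Nid1 lie higher in MDSC, Lama5 higher in ESC, and the Lamc1 arrays lie between 4.27 and 4.57 in all groups.

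Among beta chains, Lamb2, found in muscle, nerve and vessel laminin, had the smallest adjusted p of the 30 genes. It read 3.28 and 3.12 in WT, 3.67 and 3.58 in Mstn-null and 0.63 and 0.67 in ESC, a 6.77-fold higher level in MDSC (log2 2.76, SE 0.14, limma adjusted p = 0.000273). Lamb1, the broadly made beta chain of embryonic and adult laminins, differed less: 5.65 and 4.83, 5.36 and 5.44, and 4.48 and 4.49, or 1.79-fold higher in MDSC (log2 0.84, SE 0.26, limma adjusted p = 0.0404). Lamb1 was not past the threshold with the isolation number as a block (limma adjusted p = 0.0556) or with no filter on dim probes (0.0602), nor without either Mstn-null array (0.0893 and 0.102) or either ESC array (0.135 and 0.140). Lamb3, the beta chain of epidermal laminin, overlapped (WT -2.97 and -1.74, Mstn-null -1.99 and -4.45, ESC -3.16 and -1.44) and did not pass (-0.49, SE 0.90, 95% interval -2.79 to 1.82, limma adjusted p = 0.659).

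The gamma chain common to most laminins, Lamc1, read 4.44 and 4.32 in WT, 4.27 and 4.31 in Mstn-null and 4.36 and 4.57 in ESC. Its arrays overlapped, and the difference of -0.13 (SE 0.14, limma adjusted p = 0.472) had a 95% interval of -0.50 to 0.24. Both ends of that interval are smaller in size than the measured differences of Lama2, Lama5 and Lamb2. Lamc3, a gamma chain of nerve, retina and kidney laminin, was dim on all arrays (-2.99 and -3.08, -3.52 and -3.28, -4.20 and -4.12) and 1.92-fold higher in MDSC (log2 0.94, SE 0.15, limma adjusted p = 0.00497).

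The nidogens differed from each other. Nid1 read 5.68 and 5.94 in WT, 5.39 and 5.45 in Mstn-null and 3.32 and 3.11 in ESC, and was 5.27-fold higher in MDSC (log2 2.40, SE 0.16, limma adjusted p = 0.000518). Nid2 read 2.48 and 0.42, 2.33 and 2.60, and 3.39 and 3.24. Every MDSC array was below ESC, yet the difference of -1.36 (SE 0.58) did not pass (limma adjusted p = 0.0988). It passed without WT replicate 2, the low array (-0.84, limma adjusted p = 0.0229), without WT replicate 1 (-1.87, limma adjusted p = 0.00432), and within the slide of the Mstn-null and ESC arrays (-0.85, limma adjusted p = 0.0258).

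Of the 9 genes with several probes, 4 had probes with like differences between MDSC and ESC, 3 had probes that disagreed and 2 had a second probe too dim to test. The probe pairs of Itgav (2.21 and 2.40), Itgb1 (1.76 and 1.80) and Lama2 (5.58 and 5.86) lay close together, as did the 3 probes of Nid1 (2.40, 2.20 and 2.29). For Itga1 the dimmer probe gave -0.01 (limma adjusted p = 0.984), against 2.36 for the brighter. Itgb3 was called by its dimmer probe (1.05, limma adjusted p = 0.00745) and not by its brighter one. The dimmer Lama3 probe was well above background on the ESC arrays only. It read -2.27 and -3.04 there and -6.74, -6.70, -6.80 and -5.96 on the MDSC arrays. Against the detection limits it was at least 4.65-fold higher in ESC (limma adjusted p = 0.000960). This probe was tested only because the ESC arrays passed the filter, so its call is not separate support for a difference. The second probes of Itga4 and Itgb6 were well above background on no array. Fitted singly, 26 of 38 probes of the set were called, against 58.9% of all 33716 probes tested; which transcripts the probes of a gene match was not analysed here.

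**Figure D4:**
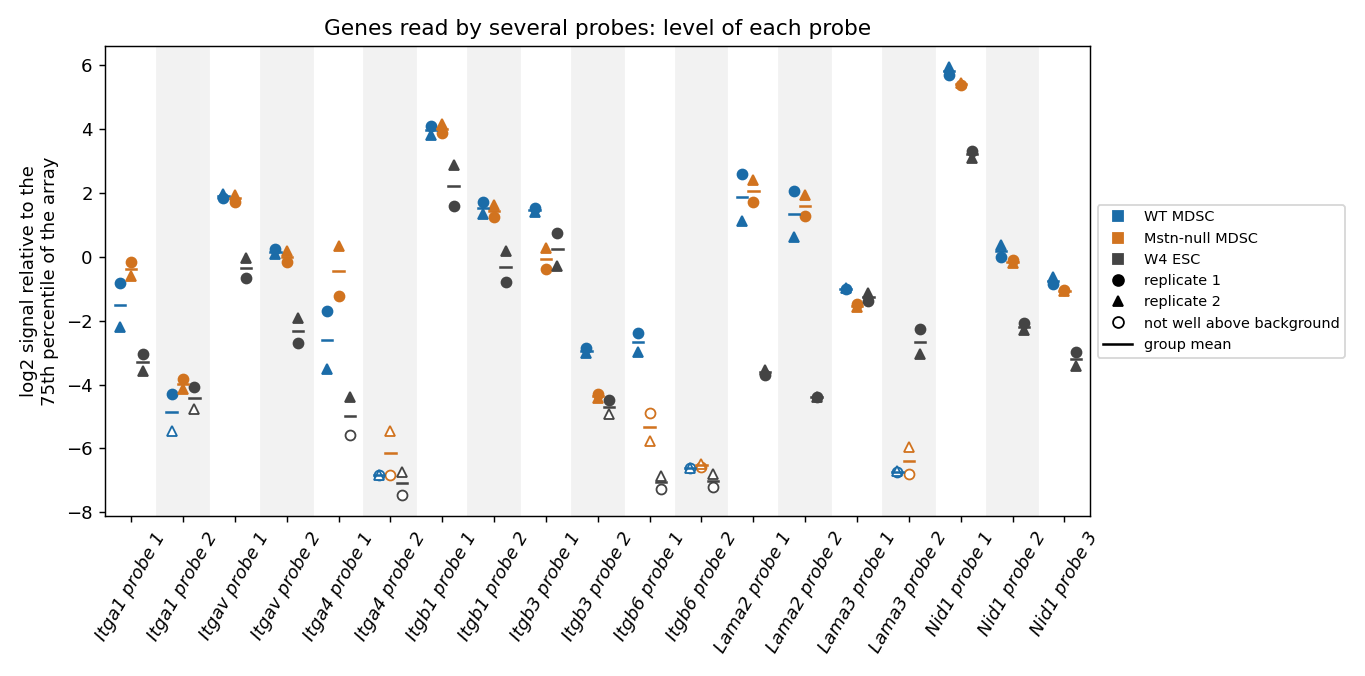
Log2 signal relative to the array's 75th percentile of each probe of the 9 genes read by several probes, on 6 arrays; blue is WT MDSC, orange Mstn-null MDSC and dark grey W4 ESC, open symbols were not well above background, and bars are group means. The 3 Nid1 probes drop from MDSC to ESC by 2.20 to 2.40, whereas the Lama3 probes differ, with the second well above background in ESC only.

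By genotype, WT MDSC were higher than ESC for 12 of the 30 genes (27.1% of all genes) and lower for 4 (25.9%). Mstn-null MDSC were higher for 15 (23.3%) and lower for 2 (30.8%). The 15 include Itgb6, which was below background on the arrays of both sides and was tested only through the WT arrays. Over all genes, 43.1% of the calls in Mstn-null versus ESC were higher, and 53.3% after median centring. These comparisons share the ESC arrays, so their values are given side by side only. Itga7 passed in WT (3.07, limma adjusted p = 0.0486) and not in Mstn-null (1.42, 0.268). Itga9 passed in Mstn-null (1.73, limma adjusted p = 0.0102) and was -0.36 in WT (0.379). Itgb2 was 3.94 in Mstn-null (limma adjusted p = 0.00814) and 1.30 in WT (0.167), and Itga4 was 4.56 (0.0100) and 2.38 (0.0675). A call in 1 genotype only is not a difference between genotypes, which the next comparison tests.

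Mstn-null and WT MDSC were compared directly to ask whether loss of Mstn goes with another expression pattern. None of the 30 genes passed, and none of the 25057 genes and features did (0%) with limma; 6 of the 30 had an unadjusted p under 0.05, against 14.7% of all genes (3671). Of the 30, 15 had WT and Mstn-null arrays that did not overlap, against 51.4% of all genes. With single probes fitted in place of genes, 8 of 33716 passed (0.0237%), 0 of them of the set. The comparison cannot be told apart from the slide.

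The 6 genes with an unadjusted p under 0.05 ran in both directions. Itgb6 was at least 4.71-fold higher in WT (limma adjusted p = 0.0853), where alone it was well above background. The fibronectin and tenascin receptor chain Itga9 was 4.26-fold higher on the Mstn-null arrays (log2 2.09, SE 0.33, limma adjusted p = 0.0944). Itgb2 was 6.24-fold higher there (log2 2.64, SE 0.69, limma adjusted p = 0.190), beside a leukocyte marker list with a median difference of 3.57 and 0 of 15 tested markers called; what leukocytes contribute was not tested. Itgb3 was lower by 2.91-fold (log2 -1.54, SE 0.41, limma adjusted p = 0.196), Lama3 had a difference of -0.54 (SE 0.17, 0.247) and Lamb2 one of 0.43 (SE 0.16, 0.319).

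Several genes that differed strongly from ESC had intervals within 1 log2 unit of 0 between the genotypes. Among them, Lamb2 had an interval that left out 0 (difference 0.43, 95% interval 0.02 to 0.83), with a limma adjusted p of 0.319. For Itgb4 the difference of Mstn-null from WT was 0.01 with a 95% interval of -0.44 to 0.46, for Nid1 -0.39 (-0.85 to 0.07), for Lama5 -0.31 (-0.90 to 0.29), for Itgav -0.06 (-0.74 to 0.61) and for Itga5 -0.26 (-0.91 to 0.39). For Lama1 (1.44, -2.68 to 5.56), Itga11 (2.18, -0.67 to 5.03) and Itga7 (-1.65, -4.16 to 0.86) the WT arrays were far apart and the intervals are wide.

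Replicate arrays of a group lay further apart for the set than for all genes at the median. The absolute gap between the WT arrays had a median of 0.76 over the 30 genes and 0.27 over all genes tested, and 14 of 30 gaps were over 1, against 10.6% of all genes. In Mstn-null the medians were 0.38 and 0.20, with 6 of 30 over 1 (6.66% of all), and in ESC 0.43 and 0.29, with 8 of 30 (11% of all). Lama1 had the widest gap in WT, Lamb3 in Mstn-null (2.46) and Lama4 in ESC (2.78). These are descriptions; the difference of the set from other genes was not tested.

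The surrounding genes of cell attachment also leaned toward MDSC. Among 21 tested integrin ligands other than laminins, 18 were higher in MDSC, 2 lower and 1 did not pass, with a median log2 difference of 3.52. This list shares genes with the fibroblast marker list, so their counts are not separate observations. The largest rises were Postn (5.77), which encodes the matrix protein periostin, Col3a1 (5.61), a fibrillar collagen, and Fbn1 (5.35), a microfibril protein. The falls were Madcam1 (-2.73) and Icam1 (-2.27), adhesion ligands of leukocyte integrins.

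Among 37 genes of the integrin adhesion complex inside the cell, 23 were higher, 1 was lower and 13 did not pass (median 1.15). Itgb1bp2, a muscle protein that binds the tail of Itgb1, was at least 5.95-fold higher in MDSC; Lims2 (3.50) and Parva (2.72), partners of integrin-linked kinase, rose as well, and Src, the adhesion kinase, fell by 0.46 on the log2 scale. Of 25 other laminin receptors and linkers, which include the dystrophin complex, 16 were higher and 3 lower (median 0.96). Sspn (4.39), which encodes sarcospan, and Sgcd (4.25), a sarcoglycan gene, were the largest rises. Bcam (-3.68), a receptor of the Lama5 chain, Dmd (-2.02) and Utrn (-1.87) were the falls. The Dmd probe was well above background on only 1 MDSC array and the Sgcd probe on only 1 ESC array, so both differences rest on signals near the limit.

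Of 22 other basement membrane genes tested, 12 were higher in MDSC, 4 lower and 6 did not pass (median 1.44). Fbln2 (4.98) and Smoc2 (4.60), secreted matrix proteins, rose most, and Ntn4, a netrin that binds laminin gamma chains, was at least 5.21-fold higher. Col18a1 (-3.46), Agrn (-2.52), both proteoglycan genes of basement membranes, and Frem2 (-1.25) fell most. Of the 4 other integrin subunits tested, 3 were higher, among them Itgam, a leukocyte chain, by 1.78, and Itgax, a dendritic cell chain. Itgax was well above background on the Mstn-null arrays only, and no fold is given because its MDSC mean includes the WT arrays. No gene of these 5 lists passed between Mstn-null and WT MDSC. The lists were drawn up with earlier results of these data known, and their counts describe the data without a test.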

How the data were processed

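RNA labelled with Cy3 was hybridised to 6 single-colour Agilent mouse arrays, 2 for each group. The deposited files hold the intensity of each spot, which the authors read with Agilent Feature Extraction. Its version is 10.7.1.1 in the file headers, whereas the submitters' processing notes name 9.1. Per the file headers, the processed signal is corrected for background but arrays are not scaled to each other. Here it was taken as log2 minus the array's 75th percentile (550 to 647 units). Spots with outlier flags (100 to 122 an array) were left out, spots of a probe were averaged, and 23 probes without a value on every array were dropped.

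Probes were named through RefSeq accessions (GRCm38.p6 table): 26404 matched 1 symbol and 29254 none. A gene was represented by its probe of highest mean and tested where 1 group or more had both its arrays well above background. Group means were fitted with limma 3.58.1 in R 4.3.3 (lmFit, eBayes, two-sided, 3 residual and 2.02 prior degrees of freedom), with Benjamini-Hochberg adjustment over 25057 genes and a threshold of 0.05; intervals are 95%. Where no array of a side was well above background and every array of the other side was, an "at least" fold is given. It divides the mean of the bright side by a mean over the dim arrays, each entered at its detection limit (the dimmest probe called well above background there) or at the signal of the gene itself if that was larger. Exact permutation tests cannot go below p = 0.333 with 2 arrays against 2, or 0.0667 with 4 against 2, and were not used. MDSC arrays are separate isolations and ESC arrays separate passages of 1 line, so the ESC spread does not cover differences between lines. On ESC replicates 1 and 2 the mean log2 level was 2.34 and -0.02 for fibroblast markers and 5.17 and 5.32 for pluripotency markers. The source of the gap between the ESC arrays was not tested.

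The members and all gene lists were chosen with earlier results of these data known. Every member is named except 1, which is counted but not reported here, as is 1 gene of a surrounding list; of each surrounding list the text names up to 3 largest rises and 3 largest falls among called genes without overlap of the arrays, and of each marker list only the genes that bear on a result. Ptprc, Cd3e, Laptm5, Coro1a, Epcam, Pou5f1, Nanog, Myod1, Myog and Pax7 were named after their values were seen. The lists of markers for endothelial, pericyte and smooth muscle, Schwann and glial, extraembryonic endoderm and platelet cells were also looked at. In MDSC versus ESC, 1 of 7 tested endothelial markers was higher and 4 lower, 3 of 7 pericyte markers higher and 2 lower, 2 of 7 glial markers higher and 0 lower, 2 of 9 endoderm markers higher and 3 lower, and 3 of 3 platelet markers higher. The alternatives were other scalings, background correction, filters, probe rules, a variance trend, the isolation number as a block, 1 slide alone, only the groups compared, and each array left out. The steps were tested on simulated data.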

Additional observations from a re-analysis of the deposited data

Results flagged for a closer look

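With 2 arrays a group, single arrays that stand apart were looked for over the 4 MDSC arrays of both genotypes together, as the gap to the nearest array divided by the whole range, against the 95% critical value of Dixon's test for 4 values. By chance such a ratio is passed in about 1 in 20 groups; it was passed by 5.38% of all 25057 genes tested and by 4 of the 30 genes of the set (13.3%). Itga7 had a ratio of 0.836, with WT replicate 1 high at 4.27 and the nearest array at 1.50. Itga11 had a ratio of 0.843, with WT replicate 2 low at 1.60 and the nearest at 4.99. Lama4 had a ratio of 0.877, with WT replicate 2 at 0.81 and the nearest at 2.74. Nid2 had a ratio of 0.874, with WT replicate 2 at 0.42 and the nearest at 2.33. WT replicate 2 was the array apart for 3 of the 30 genes and for 2.43% of all genes.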

How the results depend on the processing

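Calls between MDSC and ESC held direction and threshold wherever tested for Itga5, Itga11, Itgav, Itgb1, Itgb4, Itgb5, Itgb6, Lama2, Lama5, Lamb2, Lamc3 and Nid1. Itgb6 was not tested within 1 slide or with the all-array filter. Under the main filter it was tested only through the WT arrays. Of the 19 members called, 13 to 19 were called with the same sign in each other setting, and the total called, with genes gained, ran from 13 to 22. Leaving out an array gave 11 to 17 members higher and 2 to 5 lower in MDSC versus ESC, 2 to 4 lower in WT versus ESC, 2 to 6 lower in Mstn-null versus ESC, and over all genes 3638 to 5608 higher and 4335 to 7304 lower in Mstn-null versus ESC. Members lower in Mstn-null versus ESC numbered 4 with normexp and 6 with only the groups compared, and members lower in WT versus ESC 2 with no filter on dim probes. Differences that changed sign had not passed: with median centring Lama3 was 0.14 and Lamc1 0.016, with quantile normalization Lama3 was 0.066, and within 1 slide Itgb3 was -0.30. Leaving out an array gave Itgb3 -0.048 to 0.98, Itgb7 -1.37 to 0.30, Lama3 -0.13 to 0.12 and Lamb3 -1.35 to 0.38. The exception was Itga1, called with its brighter probe and at -0.010 with the other. The mean over probes lost Itga1 and called Lama3 (-1.95, limma adjusted p = 0.00107). Median centring moved the median of all genes by 0.14 in MDSC versus ESC. Between Mstn-null and WT MDSC no member was called in any setting, whereas over all genes quantile normalization called 11 higher and 14 lower. Same-numbered isolations deviated in opposite ways (r = -0.40 over genes tested). In MDSC versus ESC the replicate block called 15 members and 5796 of 25057 genes higher, and 4 members and 6603 genes lower. Lamb1 was lost and Itga9 gained, and 0 genes were called between genotypes. The crossed pairing, added after seeing the data, called 16 members and 6979 genes higher in MDSC versus ESC. It called 5 members and 7832 genes lower there, and 142 genes higher and 35 lower between genotypes. The cause of these changes was not tested.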
